A study of Mus musculus with 9 samples.

Results

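Mouse 3T3-L1 cells that had received a scrambled control siRNA and were then given 3-isobutyl-1-methylxanthine (IBMX) and dexamethasone (Dex) for 6 h were compared with vehicle-treated 3T3-L1 cells. The comparison takes 6 of the 9 arrays of the series, 3 on each side, paired by the replicate number in their titles. Every gene read by a probe set with exactly 1 gene symbol was included through its brightest probe set, which gave 22180 genes. Of these, 12630 reached the filter level of 6.51 on the log2 scale on at least 3 of the 9 arrays and were tested. The other 9550 reached it on fewer arrays or on none.

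3T3-L1 is a line of mouse embryo fibroblasts that can be turned into fat cells in culture and is treated as a pre-adipocyte. Confluent cells were kept in growth arrest for 48 h before induction. The treated group carried the scrambled siRNA, whose sequence has no intended target, and received 0.5 mM IBMX with 1 µM Dex. The vehicle group is named only as a vehicle control. Whether the vehicle cells were transfected, and which medium they received at the time of induction, is not given in the sources used here, so that effects of transfection or of a change of medium and effects of IBMX/Dex cannot be told apart. The remaining 3 arrays came from cells given an siRNA against CD24 before IBMX/Dex and entered the fit for the estimate of the spread. The sources do not say whether the replicates were separate cultures, and the spread that the p-values use may therefore be technical.

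IBMX blocks the phosphodiesterases that break down cyclic AMP. The rise in cyclic AMP activates protein kinase A, which phosphorylates CREB, a factor that binds the cAMP response element in promoters. Dex is a synthetic glucocorticoid. It binds the glucocorticoid receptor, which raises transcription at some genes and lowers it at others, many inflammatory genes among the latter. With insulin, the 2 agents form the standard cocktail for adipocyte differentiation, in which growth-arrested pre-adipocytes first return to the cell cycle and turn on fat cell genes later.

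Array medians over all probe sets lay between 6.47 and 6.56. Arrays of the same group, vehicle or scrambled, correlated at 0.963 to 0.990 across these probe sets. Of the 9 fibroblast and pre-adipocyte markers measured, 8 were tested. Vim, the fibroblast intermediate filament, read 13.45 to 13.57 over the 6 arrays and the pre-adipocyte marker Dlk1 read 12.16 to 12.44. Of the 8, Pdgfra, Pdgfrb, Col1a1 and Col1a2 were called lower and none higher, and the summed level of the list was 14.99 to 15.05 in vehicle and 14.66 to 14.76 with IBMX/Dex, without overlap. The mature fat cell markers Adipoq, Plin1, Cidec and Lep stayed below the filter level on every one of them. Of the other 3 measured, Fabp4 read 8.97 to 10.44, Lipe 7.28 to 7.51 and Retn 6.27 to 7.14, and none passed. The macrophage markers Adgre1, Ptprc, Itgam and Cd163 stayed below it too, while Cd68 read 7.77 to 8.50 and Csf1r 6.69 to 7.17, and neither passed. The macrophage marker Lyz2 was lower with IBMX/Dex (adjusted p = 0.0430), with overlap between the groups, a call that ended when any one of replicates 2 and 3 of the vehicle and scrambled groups or replicates 1 and 3 of the CD24 siRNA group was left out. The summed level of the 7 macrophage markers overlapped between the groups, at 9.36 to 9.92 in vehicle and 9.55 to 9.68 with IBMX/Dex. In the CD24 siRNA group, replicate 3 did not show the lower Cd24a level of its label, with 11.72 against 11.81 in the scrambled array of the same number. Leaving that array out gave 2924 called genes in place of 2942.

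The level of 2942 genes differed between the groups at an adjusted p under 0.05, 23.3% of those tested, with 1503 higher with IBMX/Dex (11.9%) and 1439 lower (11.4%). The same sign held in all 3 pairs for 2932 of them, and for 51.9% of all genes tested. The paired fit favours genes whose pairs go the same way, so this is not separate evidence. Most changes were small. The median called gene moved 1.46-fold, the quartiles were 1.34-fold and 1.69-fold, and 1642 genes (55.8% of those called) moved less than 1.5-fold. At 2-fold or more there were 174 rises (1.38% of the genes tested) and 166 falls (1.31%), so the directions were balanced at this size. Beyond it rises prevailed. Of 78 genes past 3-fold 54 rose, of 37 past 4-fold 26 rose, and all 7 past 8-fold rose. The 95% interval of a gene's difference had a median half-width of 0.25 on the log2 scale, or 1.19-fold. Another 16 tested genes differed by 2-fold or more without passing. The vehicle and IBMX/Dex values did not overlap for 3178 genes, 25.2% of those tested, and 2112 of these were called. Protein-coding genes passed at 23.7% (2760 of 11653) and genes of other kinds at 19.2% (174 of 904, with 94 higher and 80 lower). The share called varied with the mean level over the 9 arrays. It was 13.2% at levels of 6.51 to 7.51, 25.3% at 7.51 to 8.51, 30.7% at 8.51 to 9.51 and 19.7% above 11.51. Shares of gene groups given here and below were not matched for level. The counts rest on the pairing: without the replicate number in the model 876 genes passed (6.94%). Leaving out 1 array also lowered them by over 1.5 times in some cases, to 1583 without scrambled replicate 3 and 1733 without scrambled replicate 2.

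**Figure D1:**
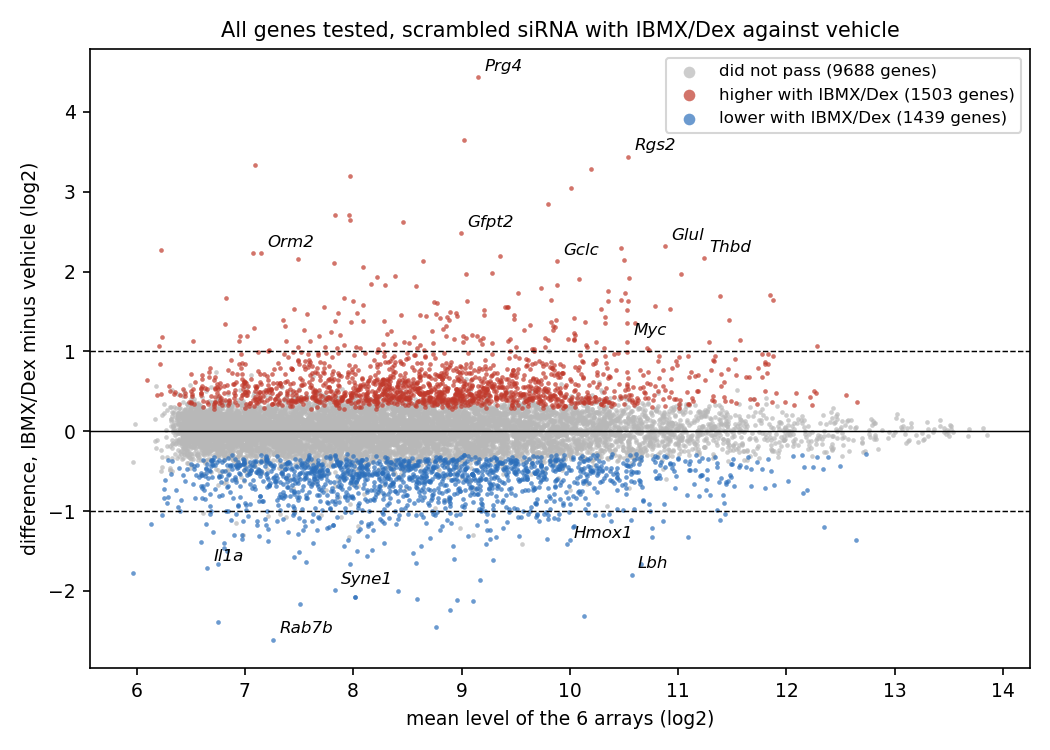
Difference between IBMX/Dex and vehicle (log2, vertical axis) against the mean log2 level over the 6 arrays (horizontal axis) for the 12630 genes tested, 1 point a gene. Red points are the 1503 genes called higher, blue points the 1439 called lower and grey points the 9688 that did not pass. Dashed lines mark 2-fold. The falls and rises are alike in number, and all 7 genes past 8-fold lie above 0.

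The pairs differed in balance. The share of genes past 2-fold leaned to falls in pairs 1 and 3, with 184 higher and 243 lower in pair 1 and 203 higher and 301 lower in pair 3. It leaned to rises in pair 2, with 330 higher and 200 lower. The median difference over all tested genes was -0.008, 0.082 and -0.015 in pairs 1, 2 and 3. With each array centred on its median 2555 genes passed, and after quantile normalization 3661.

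Gfpt2, Glul and Gclc were among the other rises, given here gene by gene and not tested as a group. Gfpt2, an isoform of the rate-limiting enzyme of the hexosamine pathway, read 7.61, 7.49 and 8.15 in vehicle and 10.14, 10.05 and 10.51 with IBMX/Dex. All 3 treated arrays lay above all 3 vehicle arrays, a 5.59-fold rise (log2 difference 2.48 ± 0.10 SE, adjusted p = 1.87e-06). Glul, glutamine synthetase, supplies the amide nitrogen that this pathway uses, and its values went from 9.66, 9.73 and 9.77 to 12.04, 11.94 and 12.12. It rose 4.99-fold, with no overlap (adjusted p = 1.87e-06). Gclc, the catalytic subunit of the enzyme that starts glutathione synthesis, read 9.14, 8.38 and 8.93 and then 10.59, 10.84 and 11.41. That was a 4.38-fold rise with separate groups (adjusted p = 1.09e-04).

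Further rises among the named genes were Orm2, Orm3, Thbd, Cd24a, Gprc5b and Parm1. The acute-phase proteins Orm2 and Orm3, serum lipocalins that lie side by side in the genome, both rose, Orm3 4.15-fold (adjusted p = 2.92e-04 and 4.44e-05). Orm2 went from 5.91, 6.19 and 6.01 in vehicle to 7.98, 7.98 and 8.85, and Orm3 from 7.21, 6.92 and 7.07 to 9.11, 8.91 and 9.33. No fold is given for Orm2, whose vehicle values lie below the filter level. They are near copies, so that probes may read both, and they do not count as independent rises. Thbd, thrombomodulin, a cofactor that turns thrombin towards anticoagulant protein C activation, went from 10.81, 9.39 and 10.25 to 12.51, 11.99 and 12.45. It rose 4.50-fold, the groups apart (adjusted p = 1.27e-04). Cd24a, the siRNA target of the third group, was itself higher in the scrambled arrays, going from 8.88, 9.92 and 9.49 to 11.19, 11.73 and 11.81, a 4.42-fold rise (adjusted p = 0.00105). Gprc5b, an orphan receptor of the retinoic acid-inducible kind, rose 3.91-fold from 10.00, 9.94 and 10.18 to 11.91, 12.12 and 12.00 (adjusted p = 5.87e-06). Parm1, a mucin-like membrane protein, rose 4.59-fold (adjusted p = 3.41e-05). In these genes, Orm2 and Orm3 among them, the lowest treated array stood above the highest vehicle array.

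Further rises were those of Socs2, Glis1 and Tcim. Socs2, a feedback inhibitor of growth hormone and cytokine signalling, went from 8.85, 8.33 and 7.69 to 10.07, 10.55 and 10.21, 3.96-fold up (adjusted p = 2.60e-04). Glis1, a zinc finger factor of the Gli and Zic kind, rose 3.93-fold from 8.45, 8.00 and 7.72 to 10.17, 10.10 and 9.82 (adjusted p = 9.64e-06). Tcim, a positive regulator of Wnt/beta-catenin signalling, rose 4.29-fold (adjusted p = 9.39e-05) and Baiap2l1, which bends membranes and binds actin, 4.39-fold (adjusted p = 2.56e-05). Nmnat2, an enzyme of NAD synthesis, rose 3.77-fold (adjusted p = 2.58e-05), Pmvk of the mevalonate pathway 3.85-fold (adjusted p = 0.00127) and the transporter Slc45a3 3.83-fold (adjusted p = 5.87e-06). The groups did not overlap for any of these 7 genes. Arl14epl also rose, but unevenly, by 1.94, 0.76 and 3.79 on the log2 scale in pairs 1, 2 and 3, and it did not pass without the block (adjusted p = 0.0103 with it, 0.145 without).

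Among the falls were Il1a, Nfkbie, Fas and Gbp7. Il1a, which encodes the cytokine interleukin-1 alpha, read 7.84, 7.04 and 7.64 in vehicle and 5.85, 5.84 and 5.69 with IBMX/Dex. It fell and ended below the filter level on all 3 treated arrays, so that no fold is given (adjusted p = 3.65e-04). Tlr4, the receptor for bacterial lipopolysaccharide, went from 7.26, 7.41 and 7.98 to 5.96, 6.42 and 6.35, a fall that also ended below that level (adjusted p = 0.00103). Tlr2, which senses bacterial lipopeptides, went from 8.85, 9.18 and 8.59 to 7.80, 8.12 and 7.43, a 2.13-fold fall (adjusted p = 1.07e-04). Nfkbie, an inhibitor of NF-kB that NF-kB itself induces, went from 9.17, 8.72 and 8.47 to 7.51, 7.29 and 7.05, a 2.83-fold fall (adjusted p = 1.83e-05). The death receptor gene Fas fell 3.15-fold, from 9.17, 9.88 and 9.18 to 7.77, 8.43 and 7.06 (adjusted p = 9.23e-05). In each of these 5 genes every treated array lay below every vehicle array. The interferon-induced GTPase Gbp7 fell 3.17-fold with the block (adjusted p = 0.00784, against 0.0711 without it).

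Pdgfrb, Irs1, Tns3, Pdlim2, Lbh and Syne1 were also lower. Pdgfrb, the receptor for platelet-derived growth factor BB and a marker of fibroblasts and pericytes, read 11.46, 11.29 and 11.70 in vehicle and 9.60, 10.15 and 9.74 with IBMX/Dex. The groups were more than 1 log2 unit apart, a 3.15-fold fall (log2 difference -1.66 ± 0.17 SE, adjusted p = 2.21e-04). The related receptor gene Pdgfra fell 2.05-fold (adjusted p = 3.65e-04), and the collagen genes Col1a1 and Col1a2 were lower at -0.45 and -0.59 on the log2 scale (adjusted p = 0.0132 and 0.00275, and 0.330 and 0.0663 without the block). The Col1a1 groups overlapped, and its call ended without scrambled replicate 1 or 3. Irs1, the insulin receptor substrate, went from 10.07, 8.78 and 9.10 to 8.20, 7.48 and 7.69 and fell 2.88-fold (adjusted p = 7.13e-05). Irs2, its paralogue and a gene on the cAMP list, moved the other way, from 9.85, 9.47 and 10.00 to 11.14, 11.25 and 11.47, a 2.86-fold rise (adjusted p = 3.23e-05). The groups were separate for both substrates. Tns3, a focal adhesion adaptor, fell 3.06-fold from 10.69, 9.93 and 9.68 to 8.79, 8.75 and 7.92 (adjusted p = 1.22e-04). Pdlim2, an actin-associated ubiquitin ligase, fell 3.64-fold from 10.12, 9.34 and 10.84 to 8.47, 8.01 and 8.23 (adjusted p = 6.53e-04). Lbh, a cofactor of transcription, fell 3.48-fold from 11.49, 10.94 and 11.97 to 9.70, 9.23 and 10.09 (adjusted p = 2.51e-05). Syne1, which links the nucleus to the cytoskeleton, read 3.97-fold lower on its brightest probe set (adjusted p = 4.78e-05), and 36 of its 40 other probe sets were lower as well, with a median log2 difference of -1.36. The remaining 4 were higher by 0.07 to 0.25.

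**Figure D2:**
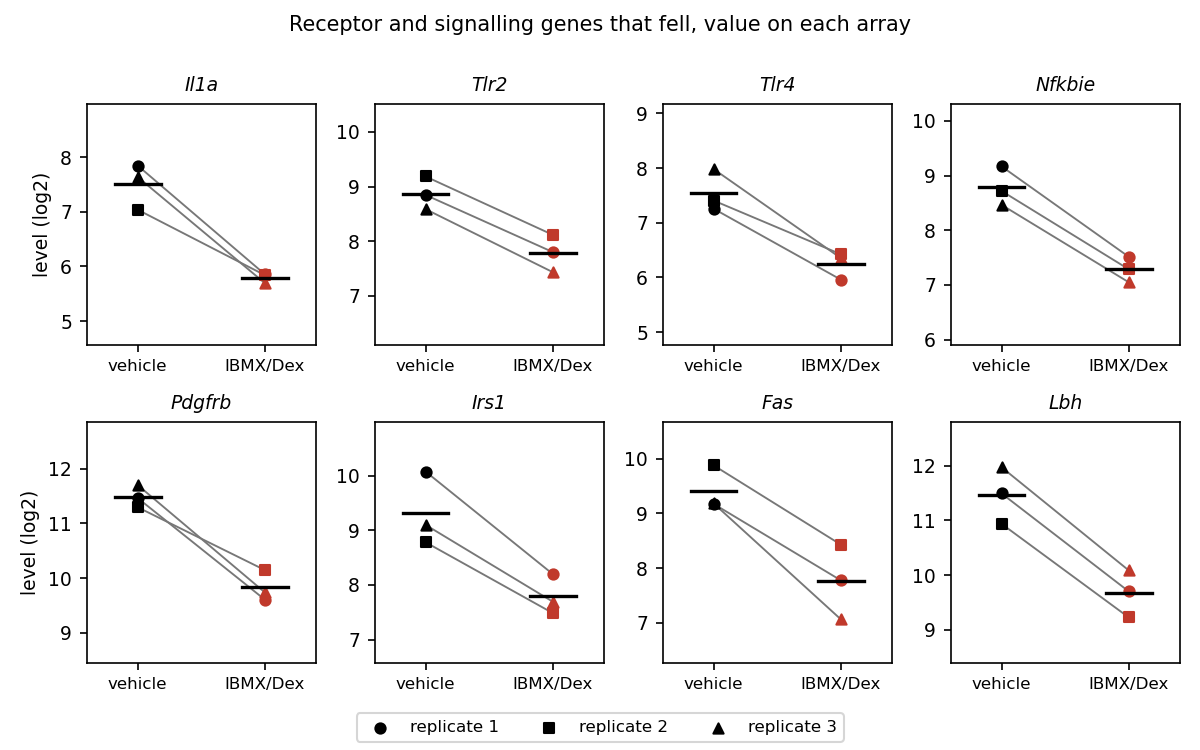
Values of 8 genes that were lower with IBMX/Dex (Il1a, Tlr2, Tlr4, Nfkbie, Pdgfrb, Irs1, Fas and Lbh), on the log2 scale for each of the 3 vehicle and 3 IBMX/Dex arrays. Lines join arrays of the same replicate number and bars are group means. Pdgfrb fell 3.15-fold and Fas 3.15-fold, with each line sloping down.

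Some genes crossed the filter level. It was passed upward on all 3 arrays, from below on all 3 vehicle arrays, by 6 genes with a change of 2-fold or more: Nr4a3, Gm5945, Mir1904, Orm2, Cd55 and Dio2. Cd55, which protects cells from complement, went from 6.01, 6.39 and 5.56 to 7.60, 7.98 and 7.40 (adjusted p = 1.75e-05). Dio2, the deiodinase that makes active thyroid hormone, went from 6.50, 5.90 and 6.02 to 7.09, 7.34 and 8.02 (adjusted p = 0.00596). Downward there were 13 such genes, and the 8 largest were Rab7b, Serpinb8, Gm3716, Il1a, Ifit2, Ankrd1, Cemip and Tlr4. Ankrd1, a muscle ankyrin repeat protein and a target of the YAP and TEAD factors, went from 7.40, 6.74 and 7.74 to 6.07, 5.51 and 6.15 (adjusted p = 1.24e-04). Cemip, which takes part in hyaluronan breakdown, went from 7.34, 7.95 and 7.57 to 6.46, 6.38 and 6.12 (adjusted p = 3.66e-04). A value below this level is dim and is not evidence of no transcript.

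Of 35 tested genes on a list of known cAMP and CREB responsive genes, 23 rose (65.7%) and 2 fell (5.71%). The median log2 difference was 0.78 against 0.02 over all genes tested, of which 11.9% rose and 11.4% fell. The list and the one that follows were already known to move in these data and are not independent evidence. Beside the Nr4a receptors and Rgs2, the rises held the feedback genes Dusp1, Sik1, Pde4b, Pde4d, Pde10a and Crem. Dusp1, a phosphatase that switches off MAP kinases, went from 9.32, 8.89 and 9.78 to 11.46, 11.38 and 12.02, a 4.89-fold rise (adjusted p = 5.41e-06). Nfil3, a bZIP repressor, rose 3.31-fold (adjusted p = 5.87e-06). The 2 falls were Egr1, an immediate early factor, at -0.90 on the log2 scale and Ppargc1a, a coactivator of mitochondrial genes, at -0.44. Neither fall passed without the block (adjusted p = 0.0652 and 0.379), where the count of rises was 15, and the Ppargc1a call also ended without scrambled replicate 1, scrambled replicate 3 or vehicle replicate 3. Of 31 tested glucocorticoid receptor targets 15 rose (48.4%) and 4 fell (12.9%), with a median of 0.39. Fkbp5, a chaperone that damps the receptor, went from 7.18, 7.20 and 7.33 to 9.10, 9.03 and 9.11 (adjusted p = 5.92e-06), and the clock gene Per1, on both lists, rose 2.89-fold (adjusted p = 2.51e-05). The falls were Angptl4, Pdk4, Snai2 and Cebpd, at -1.31, -0.86, -0.45 and -0.54 on the log2 scale. Pdk4, which restrains pyruvate dehydrogenase, went from 9.82, 9.87 and 8.24 to 8.36, 9.29 and 7.70, with overlap between the groups (adjusted p = 0.00940). Without the block 8 targets rose, and Angptl4 was the 1 fall. The Snai2 call ended without scrambled replicate 2 or 3 and the Cebpd call without scrambled replicate 3.

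Promoter letters were read for the 9866 tested genes with a RefSeq window (assembly GRCm38.p6) of 300 bases, 250 before and 50 after the transcript start. Of these genes 1865 had several windows, 12403 windows in all. A gene counts where a window holds the motif, so genes with several windows have more chances of a match. The full cAMP response element TGACGTCA, which is its own reverse complement, stood in 3.39% of all these genes. Among rises of 2-fold or more it stood in 6.35% (8 of 126), and among falls of that size in 0.84% (1 of 119). Those 8 rises were Dusp1, Tubb2a, Dio2, Mcam, Senp2, Purb, Slc25a25 and Ppm1d. Of the 334 genes with the element 44 rose (13.2%) and 15 fell (4.49%), against 11.8% and 11.5% of genes without it. The half-site TGACG, which the full element contains, on either strand, stood in 34.3% of all genes with a window. It stood in 46.0% of the rises and in 20.2% of the falls of 2-fold or more. The stretches below show where the element lies in 5 of the induced genes and, for Sgk1, the 1 palindromic glucocorticoid element (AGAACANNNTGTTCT) found among the windows, each on the gene's own strand with the motif in capitals. In Dusp1 the element starts 143 bases before the transcript start (chr17:26508582-26508641, minus strand), and in Tubb2a, a beta-tubulin, 59 bases before it (chr13:34078034-34078093, minus strand). In Dio2 it starts 95 bases before (chr12:90739100-90739159, minus strand), in Senp2, a SUMO protease, 75 bases before (chr16:22009383-22009442, plus strand), and in Slc25a25, a mitochondrial ATP-magnesium carrier, 150 bases before (chr2:32424183-32424242, minus strand). The Sgk1 element starts 189 bases before its start (chr10:21993675-21993741, plus strand).
Dusp1: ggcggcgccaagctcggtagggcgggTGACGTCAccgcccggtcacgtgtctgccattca
Tubb2a: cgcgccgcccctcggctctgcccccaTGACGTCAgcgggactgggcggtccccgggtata
Dio2: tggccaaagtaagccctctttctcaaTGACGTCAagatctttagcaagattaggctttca
Senp2: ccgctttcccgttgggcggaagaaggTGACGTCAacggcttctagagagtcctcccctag
Slc25a25: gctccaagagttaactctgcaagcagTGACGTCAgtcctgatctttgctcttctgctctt
Sgk1: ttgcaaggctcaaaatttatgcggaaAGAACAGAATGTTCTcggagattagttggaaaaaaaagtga
Tubb2a went from 8.60, 7.82 and 8.29 in vehicle to 10.30, 9.36 and 9.95 with IBMX/Dex, 3.11-fold up (adjusted p = 1.47e-05). Senp2 went from 8.53, 8.17 and 8.38 to 9.52, 9.72 and 9.29, 2.22-fold up (adjusted p = 5.28e-04). Slc25a25 went from 7.38, 7.30 and 7.45 to 8.37, 8.17 and 8.82, 2.11-fold up (adjusted p = 2.72e-04). Sgk1, a kinase of the Akt kind that raises sodium uptake, is on both hormone lists and rose 1.72-fold (adjusted p = 0.00386, against 0.0727 without the block). A match of letters is a description of the window and does not show binding.

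Shares of 4 other motifs are given without a test. The CCAAT box (CCAAT, both strands) stood in 42.0% of all genes with a window, 52.4% of the rises and 35.3% of the falls of 2-fold or more. The AP-1 site (TGACTCA or its reverse complement) stood in 4.61%, 10.3% and 11.8%, and TATAAA on either strand in 9.29%, 13.5% and 16.0%, so at this size both stood above their overall share on either side. Over all 1167 higher genes with a window the shares were 3.86% and 8.40%, and over all 1114 lower ones 6.01% and 9.87%. The glucocorticoid half-site AGAACA stood in 14.6%, 16.7% and 15.1%. Of the genes called, 2281 had a window.

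**Figure D3:**
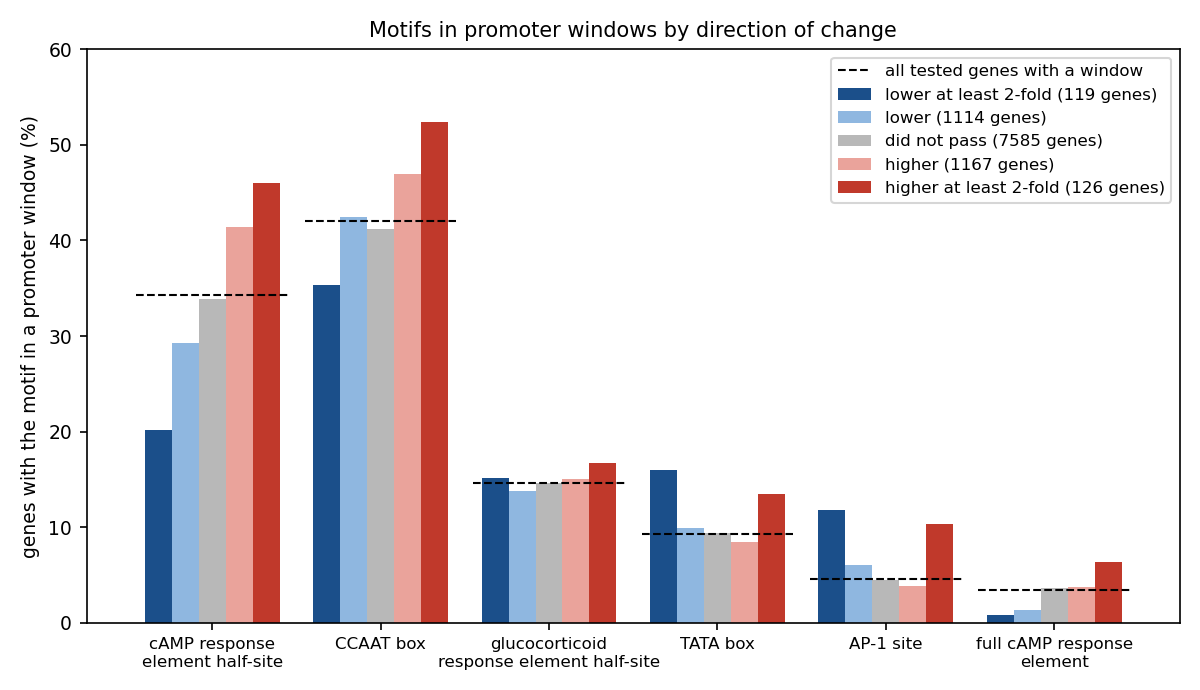
Percent of genes whose promoter window holds each of 6 motifs, by call: lower by 2-fold or more, lower, did not pass, higher, and higher by 2-fold or more (the outer groups are also counted in the inner ones). Dashed lines mark all 9866 genes. The cAMP response element, full and half-site, is least frequent among falls of 2-fold or more (0.84% and 20.2%) and the AP-1 site is above its overall 4.61% at both ends.

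Genes of ribosome production rose together. Of 74 tested ribosome biogenesis factors 33 rose (44.6%, against 11.9% of all genes tested) and 2 fell (2.70%, against 11.4%). The median was 0.35, and the 2 falls were Nol7 and Nol4. Neither of those falls passed without the block, without scrambled replicate 1 or 3 or without vehicle replicate 1 or 3, and the Nol7 call also ended without scrambled replicate 2 and the Nol4 call without CD24 siRNA replicate 2. Rrp1b, a nucleolar processing factor, went from 8.03, 7.66 and 7.42 to 8.89, 9.26 and 8.60, 2.32-fold up with separate groups (adjusted p = 3.66e-04). Nop56, a core protein of the box C/D particles that methylate ribosomal RNA, went from 10.45, 9.79 and 9.85 to 11.19, 11.02 and 10.87, 1.99-fold up (adjusted p = 7.87e-04). Ncl, nucleolin, went from 10.75, 10.43 and 10.25 to 11.40, 11.26 and 11.09 (adjusted p = 8.97e-04). The list's median was 0.24, 0.58 and 0.23 in pairs 1, 2 and 3. The number of rises depended on the model and on single arrays. It was 6 without the block, 14 without scrambled replicate 2, 18 without scrambled replicate 3 and 20 without vehicle replicate 2. Myc, the factor that drives many of these genes, went from 10.60, 9.27 and 10.05 to 11.43, 10.90 and 10.95. It rose 2.18-fold (adjusted p = 0.00139, and 0.0629 without the block).

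Small nucleolar RNAs guide those modifications and mostly lie in introns of host genes. They rose in 22 of 67 tested cases (32.8%) and fell in none, with a median of 0.39. Over all genes tested 11.9% rose and 11.4% fell. Snord61 rose from 6.58, 4.96 and 5.49 to 7.43, 6.38 and 6.40 (adjusted p = 0.00279), and Snora16a rose 1.71-fold (adjusted p = 0.00501). For both, 1 vehicle array overlapped the treated range. No fold is given for Snord61, whose values lay mostly below the filter level. An array of this kind cannot separate the mature RNA from its host transcript. The median was 0.60 in pair 2 and 0.04 in pair 3. No member passed without the block, and 8 rises were left without scrambled replicate 1 or without scrambled replicate 2, 11 without vehicle replicate 1 and 12 without vehicle replicate 2.

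Genes of nucleotide and polyamine synthesis also had more rises than falls. Of 35 tested nucleotide synthesis genes 16 rose (45.7%, against 11.9% of all genes tested) and 2 fell (5.71%, against 11.4%). The median was 0.19, and the 2 falls were Ctps2 and Adk. Rrm2, the ribonucleotide reductase subunit that cycling cells make, went from 7.10, 7.36 and 7.43 to 8.47, 9.04 and 8.50, 2.59-fold up (adjusted p = 1.38e-04). Ppat, the first committed enzyme of purine synthesis, went from 8.38, 7.93 and 7.91 to 9.29, 9.32 and 8.86 (adjusted p = 3.19e-04), the groups apart. Without the block 2 rises and no fall were left. Without scrambled replicate 2, scrambled replicate 3 or vehicle replicate 2 there were 6, 7 and 10 rises. The Adk call ended without CD24 siRNA replicate 2 and without any of scrambled replicates 1 and 3 and vehicle replicates 1 and 3. Of 26 serine, one-carbon and polyamine genes 12 rose (46.2%) and none fell (median 0.22). Odc1, the rate-limiting enzyme of polyamine synthesis, went from 9.51, 8.61 and 9.28 to 10.24, 9.65 and 9.82 (adjusted p = 0.00417, and 0.0829 without the block). Its antizyme inhibitor Azin1 rose 1.70-fold (adjusted p = 0.00130, and 0.0759 without the block). No member of that list passed without the block. The rises numbered 7 without scrambled replicate 1, 5 without scrambled replicate 2 or 3, 6 without vehicle replicate 1 and 4 without vehicle replicate 2.

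**Figure D4:**
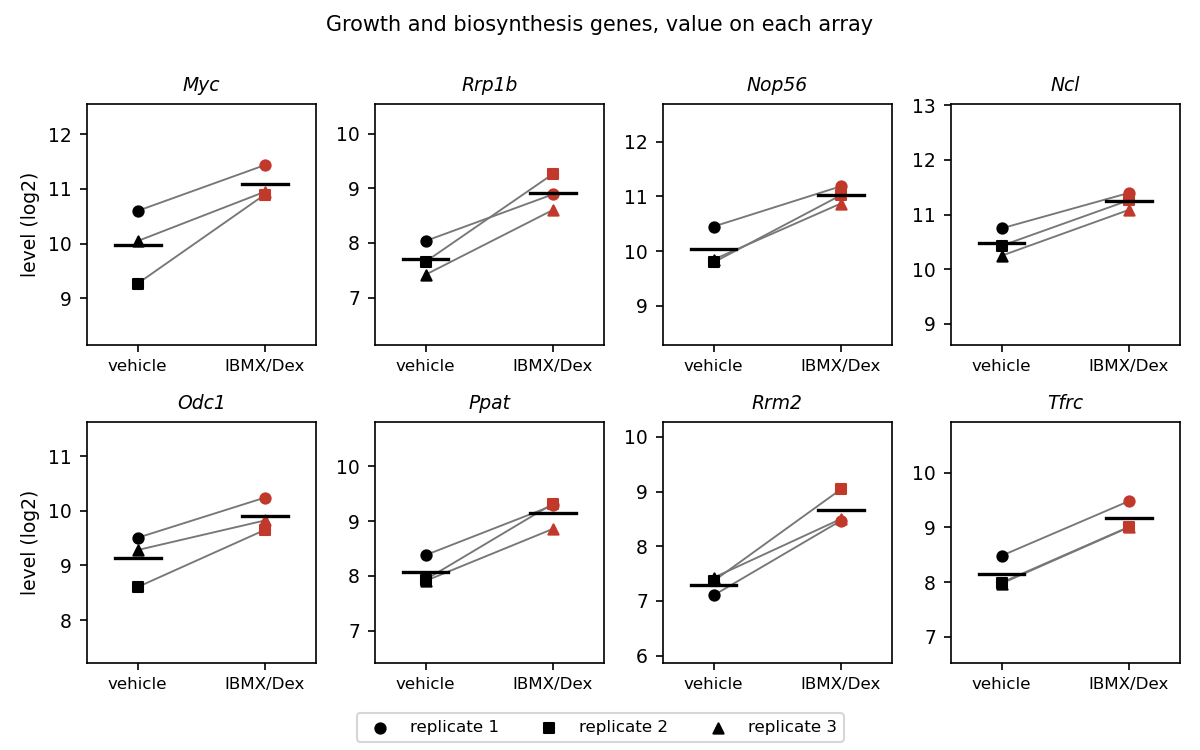
Values of 8 genes of growth and biosynthesis (Myc, Rrp1b, Nop56, Ncl, Odc1, Ppat, Rrm2 and Tfrc), on the log2 scale, for each of the 3 vehicle and 3 IBMX/Dex arrays. Lines join arrays of the same replicate number and bars are group means. Rrm2 rose 2.59-fold and Rrp1b 2.32-fold, and each of the 8 genes was higher in all 3 pairs.

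Few genes for the proteins that make up ribosomes passed. Of 58 tested cytosolic ribosomal protein genes 5 rose (8.62% called), with Rps14 at 0.58 on the log2 scale the first by p (adjusted p = 0.00549), and of 68 mitochondrial ones 6 rose (8.82% called). All were rises, so the matching share over all genes is 11.9%, and 48 of the 58 cytosolic genes were positive (median 0.14) against 41 of the 68 mitochondrial ones (median 0.08). Leaving out vehicle replicate 3 raised the mitochondrial count to 12, and scrambled replicate 2 or 3 lowered it to 2 or 3. The cytosolic count was 1 without scrambled replicate 1, scrambled replicate 3 or vehicle replicate 1 and 3 without vehicle replicate 2. Among 18 aminoacyl-tRNA synthetases Hars rose (adjusted p = 0.00600). Of 43 proteasome subunits 3 rose (6.98%) and 2 fell (4.65%), with 1 of each left without scrambled replicate 1, 2 or 3. Without vehicle replicate 1 or 3 there was 1 fall. Psmd10, a chaperone of the proteasome's regulatory particle that also binds cell cycle proteins, was the first of these by p, at -0.79 (adjusted p = 0.00657). Rps14, Hars and Psmd10 did not pass without the block (adjusted p = 0.194, 0.216 and 0.0654). Of 84 respiratory chain and ATP synthase genes 9 rose (10.7%) and 4 fell (4.76%). Translation factors, with 13 rises and 1 fall of 64, and splicing factors, with 10 and 2 of 57, had 20.3% and 17.5% higher and 1.56% and 3.51% lower, against 11.9% and 11.4% of all genes. Without scrambled replicate 2 the rises were 3, 5 and 1 in the respiratory chain, translation and splicing lists, and without scrambled replicate 3 they were 3, 6 and 2. Respiratory chain rises were also 3 without scrambled replicate 1, 2 without vehicle replicate 1 and 5 without vehicle replicate 2. Translation factor rises were 7 without scrambled replicate 1 and 8 without vehicle replicate 2, where those of splicing factors were 4. The 1 fall among translation factors was Eif2ak4, the kinase that senses amino acid shortage, from 9.60, 9.61 and 9.23 to 8.51, 8.70 and 8.41 (adjusted p = 2.43e-04). The largest fall among splicing factors was the muscleblind gene Mbnl3, at -1.04 (adjusted p = 1.85e-04).

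**Figure D5:**
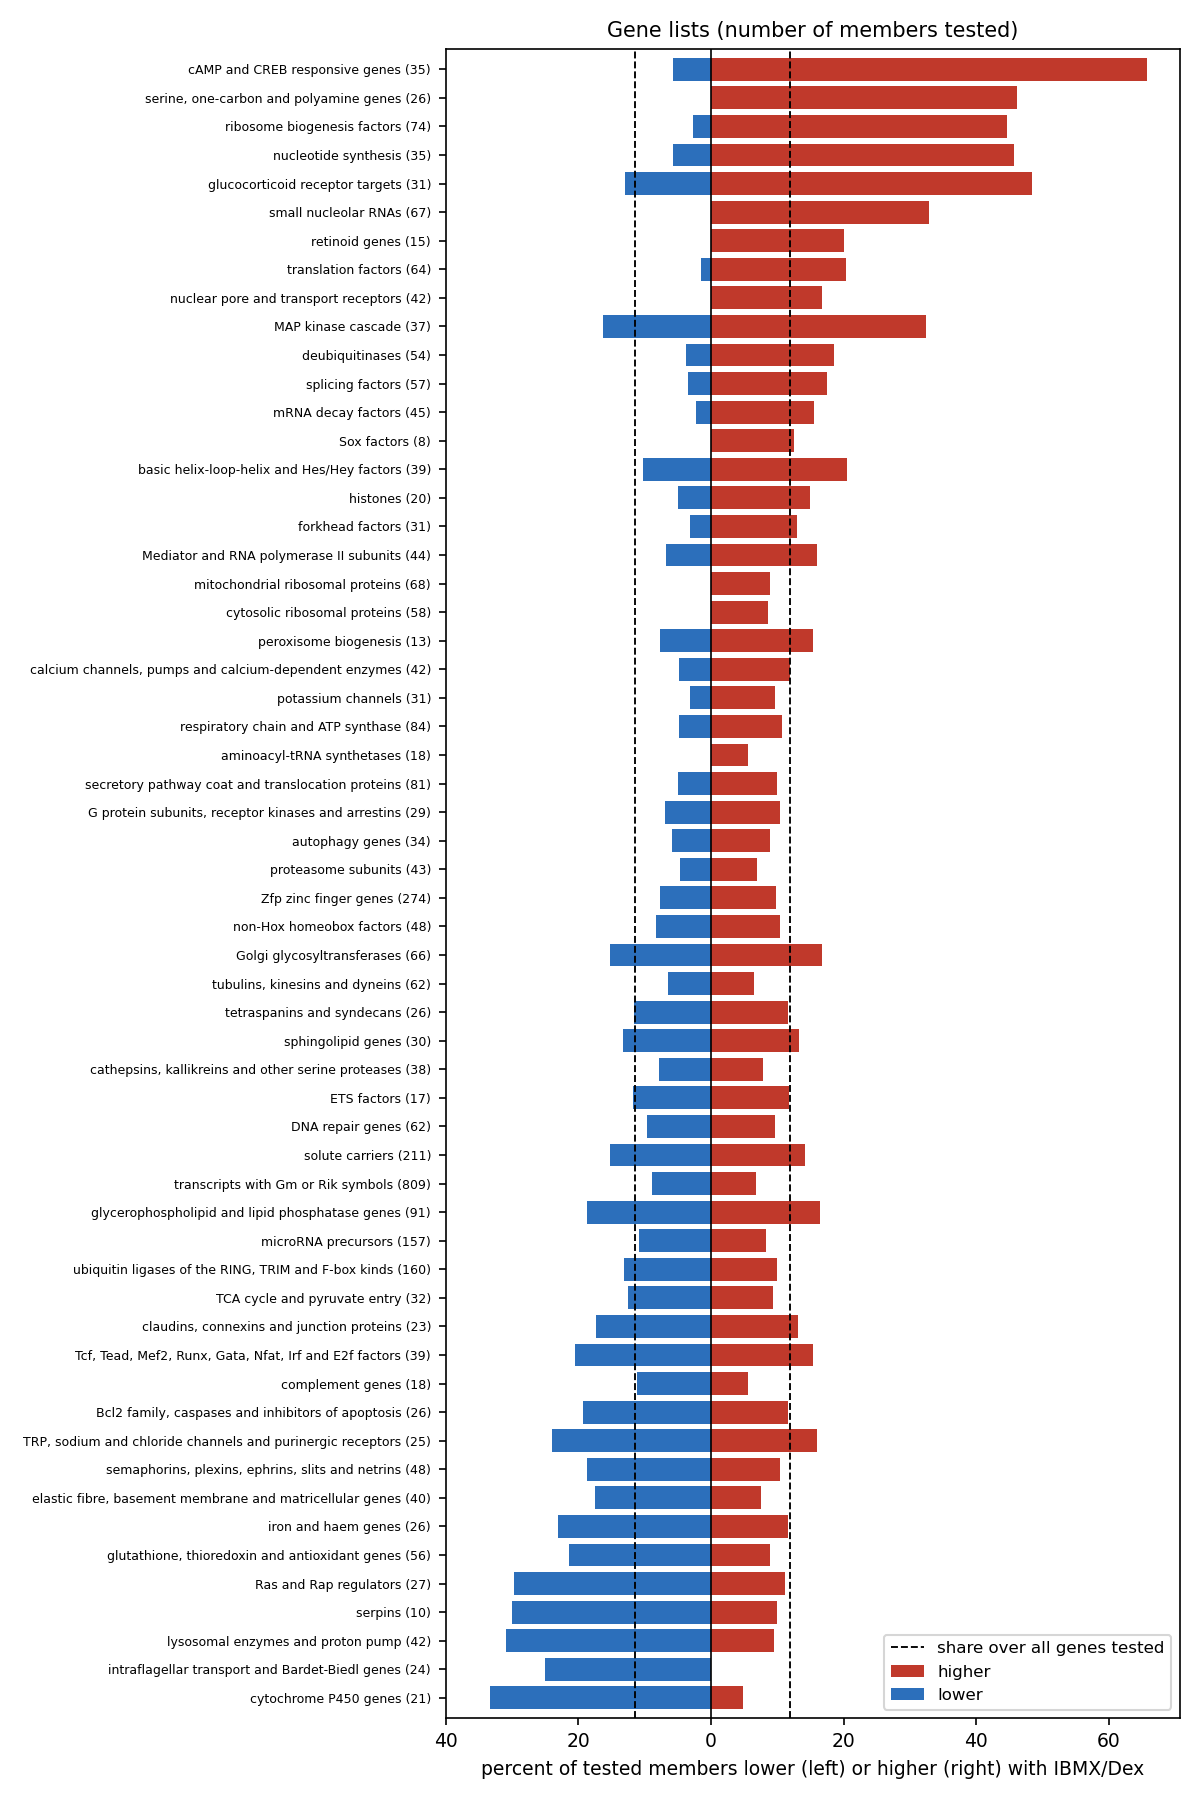
Percent of tested members called lower (left) and higher (right) in each of 58 gene lists. Dashed lines mark 11.4% lower and 11.9% higher over all 12630 genes tested. The cAMP, glucocorticoid, nucleotide and ribosome biogenesis lists lean right and the lysosome, cytochrome P450 and Ras and Rap lists lean left.

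Signalling proteins split by family. Of 37 MAP kinase cascade genes, with a median of 0.07, 12 rose (32.4%) and 6 fell (16.2%), against 11.9% and 11.4% of all genes. The stress kinases Mapk8 and Mapk9, which encode JNK1 and JNK2, rose 1.65-fold and 1.73-fold (adjusted p = 0.00110 and 0.00155). Mapk9 went from 8.62, 8.85 and 8.82 to 9.41, 9.74 and 9.52. Map3k8, an activator that acts downstream of Toll-like receptors, fell 1.58-fold from 7.47, 7.83 and 7.75 to 7.05, 7.09 and 6.93 (adjusted p = 0.00377). Without the block 5 rose and 1 fell. The rises were 6 without scrambled replicate 2, and 7 without vehicle replicate 2. The falls were 2 without scrambled replicate 1 or vehicle replicate 1 and 3 without scrambled replicate 3 or vehicle replicate 3.

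Of 27 Ras and Rap regulators 3 rose (11.1%, against 11.9% of all genes tested) and 8 fell (29.6%, against 11.4%). Rasa1, a GTPase-activating protein for Ras, fell 2.06-fold from 10.18, 9.99 and 10.68 to 9.17, 9.30 and 9.25 (adjusted p = 0.00157), and Rras fell 1.75-fold (adjusted p = 0.00109). The 3 rises were Rras2, Gem and Rasa3, of which Rras2 and Rasa3 did not pass without the block (adjusted p = 0.114 and 0.154). The Rasa3 call also ended without replicate 1 or 2 of either group. The falls were 4 without the block and 5 without scrambled replicate 1, 2 or 3 or vehicle replicate 1.

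The transcription factor lists other than Sox had calls in both directions. Of 31 forkhead factors 4 rose (12.9%) and 1 fell (3.23%). Of 48 non-Hox homeobox factors 5 rose (10.4%) and 4 fell (8.33%), and of 17 ETS factors 2 each way (11.8%). Of 39 basic helix-loop-helix and Hes/Hey factors 8 rose (20.5%) and 4 fell (10.3%), against 11.9% and 11.4% of all genes. Without scrambled replicate 2 the forkhead and helix-loop-helix rises were 1 and 4, and without the block 1 and 2. Tead4, a factor of the Hippo pathway, rose 2.75-fold from 9.06, 8.00 and 8.36 to 10.29, 9.36 and 10.16 (adjusted p = 1.27e-04), while its relatives Tead2 and Tead3 were lower at -0.48 and -0.69 on the log2 scale (adjusted p = 0.0293 and 0.00579, and 0.274 and 0.0652 without the block). The Tead2 call ended without replicate 1 or 3 of either group. Nfatc1, a calcineurin-dependent factor, rose 1.97-fold from 8.42, 8.11 and 8.51 to 9.51, 8.99 and 9.46 (adjusted p = 6.13e-04). Irf1, an interferon response factor, was lower at -0.89 (adjusted p = 0.00190, and 0.0926 without the block). Their combined list of 39 had 6 rises (15.4%) and 8 falls (20.5%), against 11.9% and 11.4% of all genes tested. The falls were 4 without scrambled replicate 1 or vehicle replicate 3 and 5 without scrambled replicate 2 or 3 or vehicle replicate 1, and the rises were 3 without vehicle replicate 1. Foxp1 rose 2.21-fold from 9.40, 9.08 and 9.21 to 10.37, 10.30 and 10.44 (adjusted p = 7.53e-05). Epas1, the hypoxia-inducible factor HIF-2 alpha, rose 2.05-fold from 9.35, 8.90 and 9.14 to 10.44, 10.18 and 9.89 (adjusted p = 0.00267), and Dlx2, a homeobox factor, 2.16-fold (adjusted p = 2.02e-04). Sox4 was the 1 called of 8 Sox genes, at 0.87 (adjusted p = 0.00222, and 0.0663 without the block). Elk3, an ETS factor, fell from 9.49, 9.11 and 9.71 to 8.68, 8.56 and 8.53 (adjusted p = 0.00208). Of 274 zinc finger genes of the Zfp series 27 were higher and 21 lower (17.5% called, against 23.3% of all genes tested). Their level, with which the share called varies, was not matched to that of all genes. Rises there were 10 and 9 without scrambled replicates 2 and 3 and 16 without vehicle replicate 1 or 2. The falls were 12 and 13 without scrambled replicates 1 and 3. Zfp36, tristetraprolin, which directs cytokine mRNAs to decay, rose 2.40-fold from 9.12, 8.78 and 8.93 to 10.49, 9.78 and 10.35 (adjusted p = 1.03e-04). The antiproliferative decay adaptors Btg1, Tob1 and Tob2 rose 1.79-fold, 1.58-fold and 1.70-fold (adjusted p = 6.11e-04, 0.00301 and 0.00288). Runx1t1, a corepressor and regulator of adipogenesis, fell 2.81-fold from 9.16, 9.05 and 8.56 to 7.60, 7.32 and 7.38 (adjusted p = 6.64e-05).

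Genes of the lysosome leaned down. Of 42 tested lysosomal enzymes and proton pump subunits 13 fell (31.0%) and 4 rose (9.52%), with a median of -0.20. Over all genes tested 11.4% fell and 11.9% rose. Atp6v0a1, a membrane subunit of the proton pump, fell 1.72-fold from 10.43, 9.96 and 10.35 to 9.28, 9.54 and 9.57 (adjusted p = 0.00290). The pump subunits Atp6v1b2, Atp6v1d, Atp6v1a, Atp6v0d1 and Atp6ap2 fell too, while Atp6v1b1, Atp6v1g1 and Atp6v0a2 rose. Of these 8 further subunits Atp6v1b2 and Atp6v1d passed without the block and without any single array, and each of the others lost its call without scrambled replicate 3, most of them without further arrays too. Mcoln1, the lysosomal calcium channel, fell 1.58-fold (adjusted p = 0.00219, and 0.0606 without the block), and Lipa, the acid lipase, 1.55-fold (adjusted p = 0.00253, and 0.0788 without). Man2b1, an acid mannosidase, rose 1.71-fold from 10.18, 9.77 and 10.18 to 10.70, 10.89 and 10.86 (adjusted p = 0.00209). The falls were 4 without the block, 6 without scrambled replicate 3 and 7 without scrambled replicate 2. The rises were 1 in each of these fits. Of 24 intraflagellar transport and Bardet-Biedl genes, which build primary cilia, 6 fell and none rose (median -0.17), Ift81, Ttc8, Bbs9, Ift122, Ift52 and Bbs7. None of these passed without the block, and 3 were left without scrambled replicate 1, 2 or 3 or vehicle replicate 3.

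Redox and iron genes moved in opposite directions within pathways. Of 56 glutathione, thioredoxin and antioxidant genes 5 rose (8.93%) and 12 fell (21.4%), with a median of -0.13. Gclm, the modifier subunit that partners the induced Gclc, fell 2.00-fold from 10.06, 10.23 and 10.09 to 9.07, 9.44 and 8.88 (adjusted p = 0.00113), with no overlap. Hmox1, which breaks down haem, fell 2.67-fold from 11.12, 10.04 and 10.90 to 9.69, 8.96 and 9.16 (adjusted p = 4.21e-04). Srxn1, which repairs peroxiredoxins and like Hmox1 and Gclm is a known target of NRF2, rose 1.86-fold (adjusted p = 8.76e-04). Tfrc, the transferrin receptor that brings iron in, read 8.48, 7.99 and 7.97 in vehicle and rose 2.02-fold with no overlap (adjusted p = 1.33e-04), and Slc40a1, the iron exporter, fell from 6.90, 6.83 and 6.80 to 5.87, 5.99 and 6.09, below the filter level (adjusted p = 4.52e-04). Of 26 iron and haem genes 3 rose (11.5%) and 6 fell (23.1%), against 11.9% and 11.4% of all genes tested. These became 1 rise without scrambled replicate 2 or 3 and 3 falls without scrambled replicate 3. Of 21 cytochrome P450 genes 7 fell (33.3%) and Cyp26b1 rose (4.76%). Cyp4v3, a fatty acid hydroxylase, fell 1.94-fold from 7.97, 8.11 and 8.31 to 7.42, 6.97 and 7.12 (adjusted p = 0.00145). Antioxidant falls numbered 4 without the block, 6 without scrambled replicate 3 and 7 without scrambled replicate 1 or 2. The P450 falls were 2 without the block and 4 without scrambled replicate 3, and the Cyp26b1 call ended without the block and without scrambled replicate 1 or 2.

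Transporters and lipid enzymes passed somewhat more often than the background and in both directions. Of 211 solute carriers 30 rose and 32 fell (29.4% called). The rises were 15 without scrambled replicate 2, and the falls 21 and 18 without scrambled replicates 1 and 3. Slc23a2, a vitamin C transporter, rose 2.68-fold from 9.35, 9.23 and 9.41 to 10.73, 10.58 and 10.94 (adjusted p = 2.58e-05), and Slc25a32, the mitochondrial folate carrier, 2.15-fold (adjusted p = 1.42e-04). Of 91 glycerophospholipid and lipid phosphatase genes 15 rose and 17 fell (35.2% called). The rises were 8 and 7 without scrambled replicates 2 and 3, and the falls 11 without scrambled replicate 1 or 2, 7 without scrambled replicate 3 and 8 without vehicle replicate 3. Abhd5, the coactivator of the triglyceride lipase ATGL, rose 2.47-fold from 9.26, 8.92 and 9.45 to 10.65, 10.22 and 10.68 (adjusted p = 3.10e-05). Agpat5, an acyltransferase of phosphatidic acid synthesis, rose 2.17-fold from 8.29, 7.90 and 7.54 to 9.48, 8.85 and 8.75 (adjusted p = 1.54e-04). Pcyt1b, of phosphatidylcholine synthesis, fell 2.37-fold from 8.36, 8.83 and 8.83 to 6.89, 7.92 and 7.46 (adjusted p = 2.18e-04). The sphingolipid list had 4 rises and 4 falls of 30 (13.3% each way). On it Sphk1 and S1pr1, which make and sense sphingosine 1-phosphate, rose 2.19-fold and 1.91-fold (adjusted p = 7.15e-04 and 0.00393, the latter 0.201 without the block). The falls in that list were 1 without scrambled replicate 3 and 2 without vehicle replicate 2. Another receptor, S1pr2, fell 1.47-fold (adjusted p = 0.00356). Of 66 Golgi glycosyltransferases 11 rose (16.7%) and 10 fell (15.2%), against 11.9% and 11.4% of all genes tested. Furthest out were B3galnt2 with a 2.29-fold rise and B3gnt9 with a 2.02-fold fall (adjusted p = 4.67e-05 and 6.24e-04). The falls there were 5 without scrambled replicate 3 and 6 without scrambled replicate 1 or vehicle replicate 1 or 3.

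Precursors of microRNAs passed slightly less often than the average gene, 13 higher and 17 lower of 157 tested (19.1% called), without matching for level. The rises were 7 without scrambled replicate 1 and the falls 8 without vehicle replicate 1. Their probe sets read the locus and do not measure the mature RNA. The mature sequences of 5 called loci are given, chosen after their values were seen from the loci that passed with any single array left out. They come from RefSeq (GRCm38.p6) with the seed, bases 2 to 8, in capitals. They lie at chr9:21496537-21496559 (miR-199a-5p, minus strand), chr2:84741116-84741137 (miR-130a-3p, minus strand), chr9:41581940-41581961 (miR-125b-5p, plus strand), chr11:35616840-35616860 (miR-218-5p, plus strand) and chr13:109903819-109903840 (miR-1904, plus strand), and their seeds all differ.
mmu-miR-199a-5p: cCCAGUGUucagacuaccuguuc
mmu-miR-130a-3p: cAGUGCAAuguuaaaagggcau
mmu-miR-125b-5p: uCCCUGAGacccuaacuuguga
mmu-miR-218-5p: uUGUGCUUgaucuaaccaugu
mmu-miR-1904: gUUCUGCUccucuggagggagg
Mir199a-1 fell 3.11-fold from 7.94, 8.18 and 9.04 to 6.49, 7.12 and 6.64 (adjusted p = 9.33e-04). Mir130a, whose mature RNA is known to target Pparg, fell from 7.27, 7.06 and 7.70 to 5.89, 6.32 and 6.02, below the filter level (adjusted p = 0.00145). Mir125b-1 fell 2.00-fold (adjusted p = 0.00317, and 0.125 without the block). Mir218-2 rose 1.81-fold from 6.77, 6.15 and 6.71 to 7.09, 7.54 and 7.57 (adjusted p = 0.00809) and Mir1904 rose from 6.20, 5.88 and 5.78, below the filter level, to 7.95, 8.20 and 8.43 (adjusted p = 2.58e-05). Transcripts known by a Gm or Rik symbol passed at 15.7%, 55 higher and 72 lower of 809. Without scrambled replicates 1, 2 and 3 the falls there were 44, 41 and 35, and without scrambled replicates 2 and 3 the rises were 27 and 33.

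The arrays with CD24 siRNA and IBMX/Dex are compared with the same 3 vehicle arrays, so that likeness between the 2 comparisons is partly built in and is not read here. Gfpt2 differed from vehicle by 2.48 with scrambled siRNA and 2.37 with CD24 siRNA on the log2 scale. The values were 2.29 and 2.19 for Dusp1, 1.21 and 1.18 for Rrp1b, and 1.46 and 1.38 for Tead4. They were -1.66 and -1.61 for Pdgfrb and -1.53 and -1.72 for Irs1. Cd24a, the target, stood at 2.15 and 1.24, and its level on the CD24 siRNA arrays was 10.15, 10.16 and 11.72, replicate 3 being the one at odds with its label.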

How the data were processed

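Total RNA (250 ng a sample) was profiled on a mouse whole-transcript array, 1 array a sample. The deposited values are log2 RMA signals over 41345 probe sets, made with the Bioconductor package oligo, per the submitters' processing notes, with no version stated there. RMA corrects background, equalises the arrays' distributions and sums probes, which compresses differences of dim and very bright genes, and the number of arrays limits the precision. Of the probe sets 23521 had 1 gene symbol in the platform annotation, 1814 several and 16010 none, and those with several or none were not used.

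From these values limma 3.58.1 (R 4.3.3) was fitted to all 9 arrays with one mean per group and the replicate number as a block, followed by eBayes and two-sided p-values adjusted by Benjamini-Hochberg over the 12630 genes tested. Every adjusted p in the text comes from this fit or, where so stated, from the fit without the block. The filter level, 6.51, is the median of the table. The numbers pair the samples: deviations from the group means correlated at 0.73, 0.57 and 0.53 between same-numbered arrays and at -0.54 to 0.12 otherwise. The fit was tested on simulated data, where it recovered 42.4% of 1.5-fold, 88.3% of 2-fold and 98.7% of 4-fold changes in 200 of 12630 genes. Calls among unchanged genes averaged 4, 8 and 11 a draw. The simulated spread followed the fitted model and only 200 genes changed, against 2942 called here, so these rates do not carry over to the data. Members and lists were chosen with earlier results of these data known. Named genes passed with 1 sign in all pairs and are the 20 largest rises and falls after 24 genes already described, up to 4 members of each list by p, the 8 smallest p in each direction, genes crossing the filter level, those with the widest spread between pairs, motif carriers and microRNA precursors. Others named to complete a count, or as a relative of one of these, were chosen after their values were seen. Alternatives were the block, the arrays, the filter, the scaling, the probe sets, the variance model and a test against 1.2-fold. Some of the results, a gene list among them, are not reported here.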

Additional observations from a re-analysis of the deposited data

How the results depend on the processing

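No named gene turned its direction under any of the 21 alternatives in which it was tested. Named genes were chosen with 1 sign in all 3 pairs, so this was largely fixed by the choice and adds no support. Without the replicate block 876 genes passed in place of 2942 (421 higher and 455 lower), all of them among the 2942, and 166 of the 312 named genes. Against a change of 1.2-fold 826 passed, 430 higher and 396 lower. Without all 3 arrays of replicate 1, 2 or 3 the count was 1351, 1792 and 1758. The higher genes then numbered 728 without replicate 1 and 663 without replicate 2, and the lower genes 623 without replicate 1 and 746 without replicate 3. Leaving out 1 array at a time gave 1583 (scrambled replicate 3) to 2924 (CD24 siRNA replicate 3) in all. Of the 1733 left without scrambled replicate 2, 1689 were among the 2942. The higher genes ranged from 717 (scrambled replicate 2) to 1533 (vehicle replicate 3), with 828 without scrambled replicate 3. The lower genes ranged from 755 (scrambled replicate 3) to 1558 (vehicle replicate 2), with 876 without scrambled replicate 1. Genes changed by 2-fold or more numbered 340, and 268 to 393 under the alternatives. Other settings gave 2299 (no filter) to 3661 (quantile normalization). Of the named genes 248 passed without any one array, and 1699 of 2478 counts of list members lay within 1.5 times the reported one. Changes under about 1.19-fold are within the median 95% interval.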

Other observations

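Ion channels, guidance receptors and death genes give further values. Of 31 tested potassium channel genes 3 were higher and 1 lower (12.9% called, against 23.3% of all genes tested). The 2-pore channel gene Kcnk10 rose 2.60-fold, from 7.31, 6.93 and 7.18 in vehicle to 8.12, 8.70 and 8.73 with IBMX/Dex (adjusted p = 0.00168). Gja1, which encodes the gap junction protein connexin 43, rose 2.86-fold from 8.21, 7.76 and 9.38 to 9.74, 9.85 and 10.31 (adjusted p = 0.00104). Of 48 semaphorins, plexins, ephrins, slits and netrins 5 rose (10.4%) and 9 fell (18.8%), against 11.9% and 11.4% of all genes tested. The co-receptor Nrp2 fell 1.82-fold from 10.91, 11.02 and 11.40 to 9.72, 10.42 and 10.60 (adjusted p = 0.00154, and 0.0656 without the replicate block). Without scrambled replicate 2, scrambled replicate 3 or vehicle replicate 1 the falls there were 5, 3 and 5, and without scrambled replicate 2 the rises were 2. Of 26 genes of the Bcl2 family, caspases and inhibitors of apoptosis 3 rose (Mcl1, Bok and Bcl2l1) and 5 fell (Casp12, Birc3, Casp4, Bcl2 and Casp8). The shares were 11.5% higher and 19.2% lower. Bcl2 went from 9.85, 10.19 and 10.57 to 8.96, 9.79 and 9.81 (adjusted p = 0.00649, and 0.154 without the block). Without the block Birc3 alone of these 8 passed. Leaving out scrambled replicate 1 ended the calls of Mcl1, Bcl2l1 and Casp8, scrambled replicate 2 those of Mcl1 and Bcl2l1, scrambled replicate 3 that of Bok, vehicle replicate 1 those of Bok and Casp8, and vehicle replicate 2 that of Bcl2l1. The DNA repair list had 6 rises and 6 falls of 62, or 9.68% each way, below the shares over all genes tested. Its falls were in 6 Parp genes (Parp3, Parp4, Parp9, Parp11, Parp12 and Parp14), several of which are interferon-induced, and Parp1 rose. Of these 7, Parp3 alone passed without the block. Rises in that list were 1 without scrambled replicate 2 or 3 or vehicle replicate 1 and 2 without vehicle replicate 2. The Parp1 call ended in these fits and without CD24 siRNA replicate 2, and the Parp4 call without scrambled replicate 2 or 3.

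Genes next to each other were listed as well. Of 10859 pairs of neighbouring tested genes both members were called in 704, of which 259 were both higher, 203 both lower and 242 opposite. Over all genes tested 23.3% were called, 11.9% higher and 11.4% lower, so many joint calls arise without any link between neighbours. The number to be expected from these shares was not worked out, and the counts are not read as a result about neighbours. Both moved 2-fold or more in 18 pairs, and 16 of these shared a direction. The pairs that rose included Sik1 with Rrp1b, Tmem41a with Senp2, Medag with Hsph1 and Prkce with Epas1. Those that fell included the chemokine genes Ccl2 with Ccl7, Snx9 with Synj2 and Tlr3 with Sorbs2. Rgs16 with Glul was among the opposite pairs. Probe sets that reach into a neighbour were not examined. Of the called genes, 109 had other probe sets that could be set beside the brightest one. Of these 174 probe sets, 40 of them from Syne1, 165 had the same sign. Probe sets of 1 gene are not independent, and some, as for Cwc22, gave the same difference as the brightest one.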
